A study of Mus musculus with 3 samples.

Results

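Erythroid cells are made in the bone marrow (BM) under the control of a small set of transcription factors and of receptors that bring in a survival signal and iron. The genes described are 10 such genes, chosen by symbol from the 16072 named genes of the deposited table. They are the transcription factors and cofactors Gata1, Zfpm1, Tal1, Lmo2, Gfi1b, Klf1, Nfe2 and Hemgn, the erythropoietin receptor gene Epor and the transferrin receptor gene Tfrc. All 10 were measured, and all 10 had a mean FPKM of at least 1 over the libraries. FPKM is the number of fragments scaled to the length of the transcript and to the fragments mapped in the library, so that levels of different genes can be set side by side.

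The RNA came from BM cells of C57BL/6 mice, used at 6 to 10 weeks of age, that carried B16.F10 melanoma, implanted subcutaneously 1 week ahead of an intramuscular vector injection. The control group (AAV-Ctrl, 2 libraries) received an empty adeno-associated virus, and the AAV-IL-27 group (1 library) received a virus that makes the mouse produce IL-27, a linked protein of EBI3 and p28 driven by the CAG promoter, which is active in most cell types. The mice of both groups carried the tumour cells, and no group without tumour cells or without virus was analysed here. Cells were taken 3 weeks after the vector and are labelled Ly6G+ myeloid cells, or Gr-1+ cells in the study, which are largely neutrophils. The labels speak of 4 mice but list 2 control libraries and 1 AAV-IL-27 library. Besides these, 1 column of the deposited table carries the name of another IL-27 replicate, which corresponds to none of the listed samples and was not used here. Every IL-27 value therefore comes from a single library, the mouse-to-mouse spread was not assessed, and no p-value was computed. Each difference is set against the difference of the controls from each other. Where 3 values are given in a row, their order is AAV-Ctrl 1, AAV-Ctrl 2 and then AAV-IL-27.

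Neutrophil markers were abundant in all 3 libraries. S100a9, which encodes a calcium-binding protein of neutrophils, was at 73508, 71786 and 68765 FPKM, and Ly6g was at 711.8, 766.1 and 586.3. Of 14 neutrophil markers, 0 lay 1 log2 unit or more away from both controls. The estimated depth was similar, from 18660000 to 18880000 fragments per library. Globin genes, the main product of erythroid cells, made up 3.40% of all FPKM in AAV-Ctrl 1, 2.32% in AAV-Ctrl 2 and 0.405% after IL-27.

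In red cell precursors, GATA1 switches on the erythroid programme together with its cofactor FOG1 (the product of Zfpm1) and with a complex in which TAL1 and LMO2 take part. KLF1 activates the adult globin genes, and GFI1B represses genes of other fates. Erythropoietin acts through its receptor to keep precursors alive, and the transferrin receptor takes up the iron that haem needs. Several of these factors also work outside the erythroid lineage, since megakaryocytes, mast cells and eosinophils use GATA1, and NFE2 serves both erythroid cells and megakaryocytes.

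The AAV-IL-27 library had less RNA of 8 of the 10 genes than either AAV-Ctrl library, while Nfe2 and Lmo2 were near their control levels. A gene was counted as lower when its log2(FPKM + 1) lay at least 1 unit below each AAV-Ctrl library. This rule held for 8 of 10 genes here, against 212 (2.32%) of the 9130 genes whose mean FPKM was 1 or more. The opposite rule, for higher genes, held for 0 of the 10 and for 28 of the 9130 (0.307%), or for 49 of the 9130 when AAV-Ctrl 2 was left out. The median log2 difference of the 10 genes was -1.52, against -0.01 over the 9130 genes, and the controls differed from each other by a median of 0.01. Because the share of lower genes depends on the level, it was also taken over the 2492 genes within the range of mean FPKM of the 8 lower genes, from 2.69 to 8.49. There 95 genes (3.81%) were lower. When an AAV-Ctrl library was taken as the odd one, 0 of the 10 genes were lower or higher than both other libraries. Of the 9130 genes, 3 were lower and 0 higher with AAV-Ctrl 1 as the odd one, and 1 was lower and 3 higher with AAV-Ctrl 2. So few genes met the rule there that a count of 0 of 10 carries little weight. In bulk RNA, fewer cells of a type and less RNA per cell cannot be told apart, and this holds for every value that follows.

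**Figure D1:**
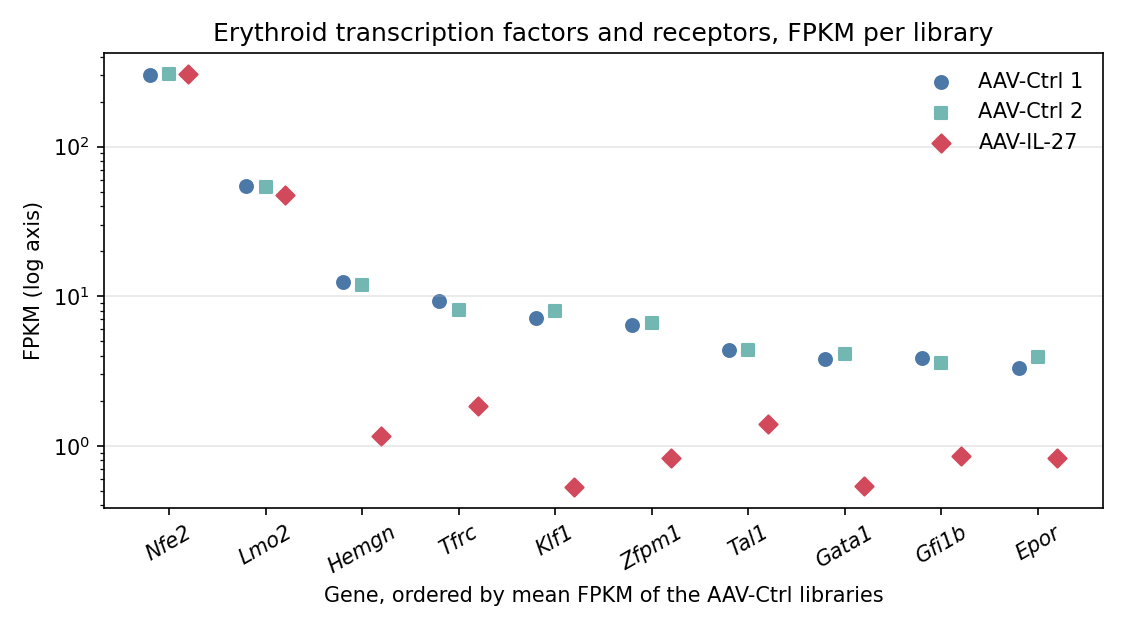
FPKM of the 10 genes (log axis) in the AAV-Ctrl libraries (circles and squares) and the AAV-IL-27 library (diamonds), ordered by the mean of the AAV-Ctrl libraries. The AAV-Ctrl points lie close together for every gene, and the AAV-IL-27 point lies well below them for all genes but Nfe2 and Lmo2.

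Gata1, which encodes the central zinc finger factor of the erythroid lineage (NCBI Gene 14460, GRCm38 chromosome X from 7959260 to 7978071, minus strand), was at 3.83, 4.12 and 0.54 FPKM. The AAV-IL-27 value was thus far below both controls, which lay close together. The control mean was 3.98 ± 0.205 (SD, n = 2), 7.36-fold above the AAV-IL-27 value, and the log2(FPKM + 1) difference was -1.69, against 0.08 between the controls.

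Zfpm1, whose product FOG1 binds GATA1 and is needed for much of its activity (NCBI Gene 22761, chromosome 8 from 122282141 to 122337251, plus strand), was at 6.40, 6.67 and 0.83 FPKM. It was lower by nearly the same proportion as its partner, with the AAV-IL-27 value at 12.7% of the control mean for Zfpm1 and at 13.6% for Gata1. Its log2 difference was -2.04, against 0.05 between the controls. In GENCODE M21 the gene model Gm20388 spans all of Zfpm1 on the same strand, and no row of the table carries that symbol.

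The genes of the TAL1 and LMO2 complex differed from each other. Tal1, which encodes a basic helix-loop-helix factor (NCBI Gene 21349, chromosome 4 from 115056426 to 115071755, plus strand), was at 4.40, 4.36 and 1.40 FPKM. Its log2 difference of -1.16 was the smallest among the 8 lower genes, and its AAV-IL-27 value was 32.0% of the control mean. Lmo2, which encodes the LIM-domain protein that links TAL1 to its partners (NCBI Gene 16909, chromosome 2 from 103957986 to 103981878, plus strand), was at 54.53, 53.66 and 47.71 FPKM. The AAV-IL-27 value was the lowest of the 3, but at 88.2% of the control mean, a log2 difference of -0.18. That exceeds the difference of -0.02 between the controls, and falls below the 99th percentile of 0.57 of such control differences over the 9130 genes.

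Gfi1b, which encodes a zinc finger repressor of erythroid and megakaryocytic cells (NCBI Gene 14582, chromosome 2 from 28609450 to 28621982, minus strand), was at 3.86, 3.59 and 0.85 FPKM. The controls were 4.38-fold above the AAV-IL-27 value, with a log2 difference of -1.35 and of -0.08 between the controls. Its relative Gfi1, a repressor used by granulocytes, was at 5.11, 5.17 and 6.28 FPKM. The 2 related repressors thus lay on opposite sides of their controls, although the value of Gfi1 did not pass the rule for higher genes.

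Klf1 showed the largest proportional difference of the 10 genes in point values. It encodes the factor that activates adult beta-globin (NCBI Gene 16596, chromosome 8 from 84901928 to 84905291, plus strand) and was at 7.18, 7.94 and 0.53 FPKM, which is 7.01% of the control mean. The control mean of 7.56 ± 0.537 (SD, n = 2) was 14.3-fold above the AAV-IL-27 value, and the log2 difference was -2.48, against 0.13 between the controls. Hemgn, which encodes a nuclear protein of blood-forming cells known as a GATA1 target (NCBI Gene 93966, chromosome 4 from 46393989 to 46413506, minus strand), had 12.38, 11.92 and 1.16 FPKM. On the log2(FPKM + 1) scale its difference of -2.61 was the largest of the 10. Its AAV-IL-27 value was 9.55% of the control mean. Counting error leaves the order of Klf1 and Hemgn unresolved on either scale. By its distance from the nearer control, Hemgn ranked at 9 among the 9130 genes, Klf1 at 18, Zfpm1 at 38, Tfrc at 68, Gata1 at 71, Gfi1b at 121, Epor at 136 and Tal1 at 157.

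Nfe2 stood apart from the other genes in level and in difference. It encodes the larger subunit of a factor that pairs with small MAF proteins (NCBI Gene 18022, chromosome 15 from 103248212 to 103258403, minus strand), and it was at 298.90, 307.18 and 303.71 FPKM. The AAV-IL-27 value lay between the controls, at 100.2% of their mean of 303.0 ± 5.85 (SD, n = 2). Among the 1344 genes with a mean FPKM at least that of Lmo2, 14 (1.04%) were lower.

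Both receptor genes were among the lower genes. Epor (NCBI Gene 13857, chromosome 9 from 21958897 to 21963506, minus strand) was at 3.34, 3.91 and 0.83 FPKM, a log2 difference of -1.33. Tfrc (NCBI Gene 22042, chromosome 16 from 32608920 to 32632794, plus strand) was at 9.32, 8.12 and 1.86 FPKM, a log2 difference of -1.76. The AAV-IL-27 values were at 22.9% of the control mean for Epor and 21.3% for Tfrc, close to the 22.8% of Gfi1b. These receptor genes also differed most between the controls, with Epor 0.18 higher and Tfrc 0.18 lower in AAV-Ctrl 2 on the log2 scale. Tfrc is not restricted to erythroid cells, since dividing cells of any kind take up transferrin.

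**Figure D2:**
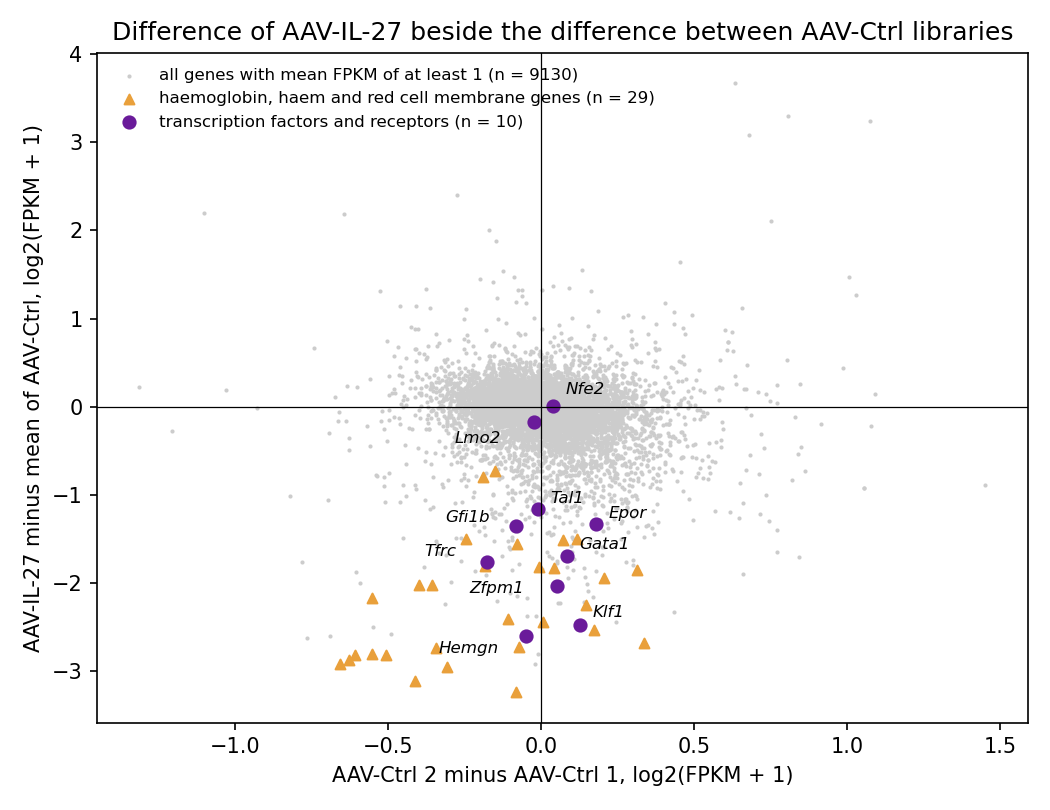
Each point is a gene with a mean FPKM of at least 1. The horizontal axis is the log2(FPKM + 1) difference between AAV-Ctrl 2 and AAV-Ctrl 1, and the vertical axis that of AAV-IL-27 from the mean of the AAV-Ctrl libraries. The 10 genes (filled circles) lie within 0.18 of 0 on the horizontal axis, and 8 of them lie between -2.61 and -1.16 on the vertical axis. Triangles are haemoglobin, haem and red cell membrane genes, of which the globin genes lie to the left.

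The order of the point values was not the same in AAV-IL-27 as in the controls. In AAV-Ctrl 1 and AAV-Ctrl 2 alike, Nfe2, Lmo2, Hemgn, Tfrc, Klf1, Zfpm1 and Tal1 held the first 7 places in that order. The control values of Gata1, Gfi1b and Epor overlapped, so their order was not resolved. In AAV-IL-27, Klf1 and Gata1 had the lowest values, at 0.53 and 0.54, and their order was not resolved, since their counting intervals overlapped. Counting error also leaves the order of Klf1 and Gata1 beside Zfpm1 and Epor unresolved. Klf1 had been at place 5 in both controls. Tal1 stood at place 4 in place of 7, and Zfpm1 and Epor had the same value. No counting interval was estimated for Tal1 and Gfi1b, so their places are those of point values only.

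Counting error was small beside these differences. For the 6 genes listed with a single transcript, fragments were estimated from the FPKM, the transcript length and the estimated depth. Klf1 had an estimated 198, 222 and 15 fragments. The exact 95% Poisson interval was 171.4 to 227.6 for AAV-Ctrl 1, 193.8 to 253.2 for AAV-Ctrl 2 and 8.4 to 24.7 for AAV-IL-27. Gata1 had 132, 144 and 19 fragments, with an interval from 11.4 to 29.7 in AAV-IL-27 and from 110.4 to 156.5 in AAV-Ctrl 1. Epor rested on 107, 126 and 27 fragments, and Tfrc on 842, 742 and 169. For Zfpm1 the numbers were 399, 421 and 52, and for Hemgn 534, 521 and 50. For all 6 genes the intervals of the AAV-Ctrl libraries overlapped each other and lay above that of AAV-IL-27. The intervals cover counting error only and say nothing of the spread between mice.

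**Figure D3:**
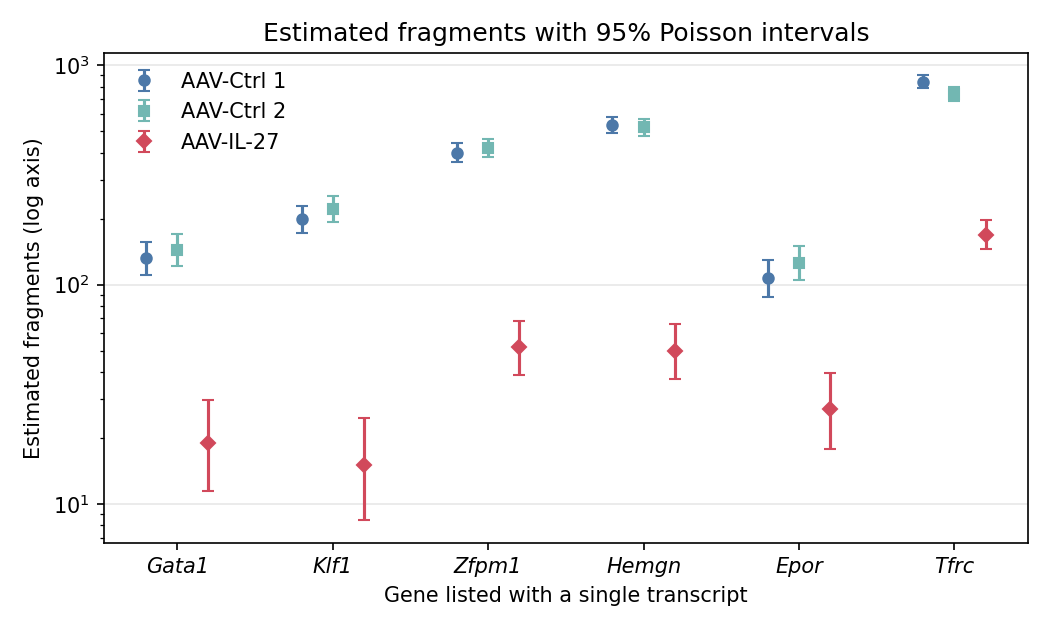
Estimated fragments (log axis) of the 6 genes listed with a single transcript, with exact Poisson intervals at the 95% level. The AAV-IL-27 intervals (diamonds) lie below those of both AAV-Ctrl libraries for each gene, with Klf1 lowest at 15 fragments.

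The promoters of these genes were searched for the letters that the factors are known to bind. Windows of 250 bases before the RefSeq start (GRCm38.p6) were at hand for 8 of the 10 genes, in 10 windows, and for all genes in 32851 windows; Nfe2 and Lmo2 were not matched. The GATA motif GATAA, or TTATC on the other strand, was found in 5 of the 10 windows, against 22.6% of all windows. The 5 sites are printed with up to 45 bases on each side, 5′ to 3′ on the strand of the gene, with the motif in capitals. The product of Gata1 reads letters of this kind:
Klf1 chr8:84901857-84901951 (plus): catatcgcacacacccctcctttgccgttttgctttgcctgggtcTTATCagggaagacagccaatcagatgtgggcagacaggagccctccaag
Tal1 chr4:115056176-115056270 (plus): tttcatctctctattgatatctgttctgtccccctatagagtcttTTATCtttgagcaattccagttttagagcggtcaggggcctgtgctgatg
Gfi1b chr2:28622052-28622146 (minus): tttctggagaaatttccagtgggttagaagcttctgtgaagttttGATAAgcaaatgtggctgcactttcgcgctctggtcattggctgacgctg
Hemgn chr4:46404184-46404240 (minus): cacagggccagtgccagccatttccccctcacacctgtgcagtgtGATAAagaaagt
Epor chr9:21963581-21963675 (minus): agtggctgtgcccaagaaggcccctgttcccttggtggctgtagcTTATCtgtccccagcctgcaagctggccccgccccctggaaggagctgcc

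The motif began 12 bases before the start in Hemgn, 54 in Epor, 80 in Klf1, 119 in Gfi1b and 205 in Tal1. For Hemgn (46393989 to 46413506) and Klf1 (84901928 to 84905291) the RefSeq start lies inside the GENCODE gene span given above, not at its outer end. For Epor the RefSeq start lies outside that span. The GATA motif was not found in these windows of Gata1, Zfpm1 and Tfrc. All 8 genes with a window were lower genes, so the motif could not be compared with genes that were not lower. The letters CACCC, which KLF1 reads, were found on either strand in 8 of the 10 windows, against 52% of all windows. The E-box CAGNTG, of the kind that TAL1 reads with its partners, was found in 4 windows (44.8% of all), and TGAGTCA, of the kind that NFE2 reads, in 0 windows (4.46% of all). All motifs were searched on both strands, and of the 24 matches in these windows 0 shared bases with a match of another motif. These matches describe letters in short windows and do not show that a factor was bound.

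Genes that these factors are known to activate were lower as well. The list of haemoglobin, haem synthesis and red cell membrane genes had 31 measured genes, of which 29 had a mean FPKM of at least 1. Of these, 27 were lower by the rule and 0 were higher, and the median log2 difference was -2.26. Hba-a1, an alpha-globin gene, was at 8135.7, 5547.0 and 957.7 FPKM. Car2, a carbonic anhydrase gene, was furthest from its controls at 83.28, 78.70 and 7.66 FPKM. Slc4a1, the gene of the anion exchanger of the red cell membrane, was at 67.64, 54.51 and 6.92, and Ahsp, which encodes a stabiliser of alpha-globin, at 86.50, 82.16 and 11.85. The exceptions were the haem synthesis genes Urod and Uros, which every cell uses, with AAV-IL-27 values at 58.4% and 45.2% of the control mean. Near-identical globin genes share fragments, so their single values are uncertain and their sum is used from here on.

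The factors and the globin genes differed in one respect, which was visible between the controls. The sum of the 5 measured globin genes was 20186 FPKM in AAV-Ctrl 1, 13595 in AAV-Ctrl 2 and 2321 after IL-27, and each of the 5 genes was higher in AAV-Ctrl 1 than in AAV-Ctrl 2. Of the 10 factors and receptors, 5 were higher in AAV-Ctrl 1 and 5 in AAV-Ctrl 2, and none differed by more than 0.18 on the log2 scale. Relative to the globin sum, all 10 were therefore higher in AAV-Ctrl 2, by ratios from 1.29 (Tfrc) to 1.74 (Epor).

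By point values, the ratios of the factors to globin in AAV-IL-27 did not all lie on the same side of this spread. Gata1 was at 0.190, 0.303 and 0.233 FPKM per 1000 FPKM of globin, and Zfpm1 at 0.317, 0.491 and 0.358, so that both lay between the controls. Klf1 (0.356, 0.584 and 0.228) and Hemgn (0.613, 0.877 and 0.4998) were below both controls. Tal1 (0.218, 0.321 and 0.603), Gfi1b (0.191, 0.264 and 0.366), Epor (0.166, 0.288 and 0.358) and Tfrc (0.462, 0.597 and 0.801) were above both controls. The largest ratios of AAV-IL-27 to the control mean were those of Nfe2, at 6.997, and Lmo2, at 6.18, whose FPKM did not follow the globin genes. How far RNA of cells other than erythroid cells contributed to the ratios was not tested.

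**Figure D4:**
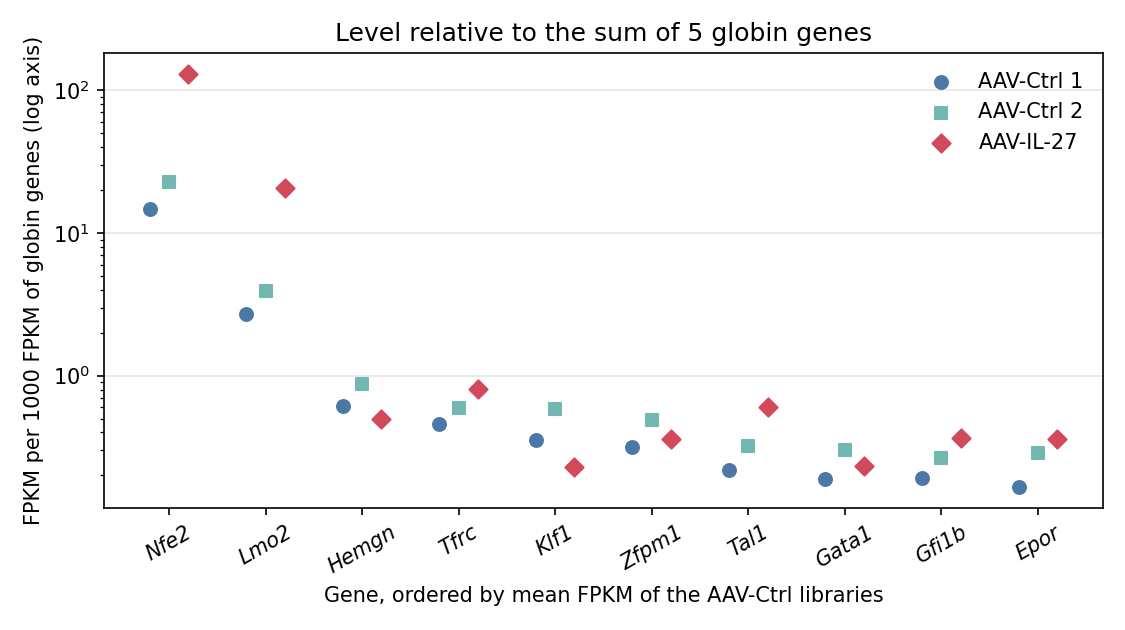
FPKM of each of the 10 genes per 1000 FPKM of the summed globin genes (log axis) in each library. Counting error is not shown, and it leaves the places of Klf1, Hemgn, Epor, Gata1 and Zfpm1 beside the controls unresolved. For Tal1, Gfi1b, Nfe2 and Lmo2, listed with more than 1 transcript, counting error was not estimated. AAV-Ctrl 2 (squares) is above AAV-Ctrl 1 (circles) for every gene, and AAV-IL-27 (diamonds) is above both for Nfe2, Lmo2, Tfrc, Tal1, Gfi1b and Epor, between them for Gata1 and Zfpm1 and below both for Hemgn and Klf1.

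Of the partners of these factors that most cells express, most were close to their control levels. Of 20 such genes, 19 had a mean FPKM of at least 1, and 0 of them were lower or higher by the rule, with a median log2 difference of -0.01. Ldb1, which encodes the protein that joins LMO2 and TAL1 complexes across DNA, was at 25.59, 24.89 and 31.24 FPKM. Mafg and Mafk, which encode small MAF partners of NFE2, were at 51.21, 56.61 and 53.55 and at 15.89, 16.13 and 17.53. Nfe2l2, a relative of Nfe2 and the most abundant of the list, was at 115.00, 108.10 and 136.19 FPKM. The furthest below its controls was Tcf12, which encodes an E protein that pairs with TAL1, at 1.68, 1.61 and 0.78. Its log2 difference was -0.57, although the AAV-IL-27 value was 47.4% of the control mean, since the added 1 narrows differences of low genes. Hdac2 was at 69.5% of its control mean.

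Factors of earlier progenitors gave no gene past the rule among the 6 of 11 that had a mean FPKM of at least 1. Their median log2 difference was -0.03, and the most abundant was E2f2, at 75.28, 74.63 and 65.72 FPKM. Lyl1, a relative of Tal1, was higher than its controls, at 38.33, 42.20 and 54.23, a log2 difference of 0.42. Gata2, which precedes Gata1 in progenitors, was below the filter at 0.78, 0.84 and 0.47. Sox6, a repressor of embryonic globin, was also below the filter at 1.11, 0.96 and 0.11. Of the granulocyte and monocyte factors, 9 of 10 had a mean FPKM of at least 1 and 0 were past the rule. Spi1, which encodes PU.1, a factor that opposes GATA1, was at 588.7, 611.1 and 632.4.

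The list of erythropoietin signalling genes, which also holds Kit, Kitl and Csf2rb, gave no gene past the rule among those above the filter. Of 18 listed symbols 16 were in the table, Epo itself not among them, and 13 genes had a mean FPKM of at least 1. None of these 13 was lower or higher by the rule, and the median log2 difference was 0.07, with no stable sign, since it was -0.03 with no filter on low values. Below the filter, Kitl was at 0.69, 0.69 and 0.10 FPKM, Fam132b at 0.19, 0.04 and 0.00, and Socs2 at 0.56, 0.55 and 0.51. A gene whose controls are below 1 FPKM cannot fall by 1 unit of log2(FPKM + 1), so the rule could not call these genes lower. The AAV-IL-27 value of Kitl was 14.5% of its control mean. The study reports lower Kitl in these cells. The kinase gene Jak2 was at 25.72, 23.18 and 25.67 FPKM. Stat5a was at 8.21, 8.97 and 9.39, and Stat5b at 56.08, 52.53 and 57.51. Ptpn6, which encodes a phosphatase that ends the signal, had the highest level at 389.4, 395.1 and 473.9. The survival gene Bcl2l1 was at 27.44, 24.93 and 17.84, and the feedback inhibitor Socs3 at 49.23, 35.52 and 19.14, below both controls by less than 1 unit from the nearer. Socs1, another feedback inhibitor, lay furthest above its controls in the list, at 3.35, 3.55 and 6.97, a log2 difference of 0.84. Neutrophils use these signalling genes as well, under other cytokine receptors.

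Among 18 genes of the transferrin cycle and of iron handling, 17 had a mean FPKM of at least 1, and 2 were lower. These were Abcb10, which encodes a mitochondrial transporter linked to haem synthesis (4.80, 4.71 and 1.74 FPKM), and Steap3, which encodes the reductase for iron from transferrin (2.04, 2.76 and 0.50). Slc11a2, the gene of the transporter that carries this iron out of the endosome, was at 1.53, 2.04 and 0.30, just short of the rule against AAV-Ctrl 1. The ferritin gene Ftl1, the most abundant of the list, was at 2475, 2398 and 2643 FPKM. Slc25a37, which encodes the mitochondrial iron carrier mitoferrin, was at 63.77, 61.65 and 50.32 and so stayed near its controls, unlike Tfrc. The iron sensor genes Ireb2 (16.42, 15.31 and 14.81) and Aco1 (2.20, 2.53 and 1.42) were not past the rule either. The median of the list was -0.21, and -0.05 over the genes whose mean FPKM reached 5.

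**Figure D5:**
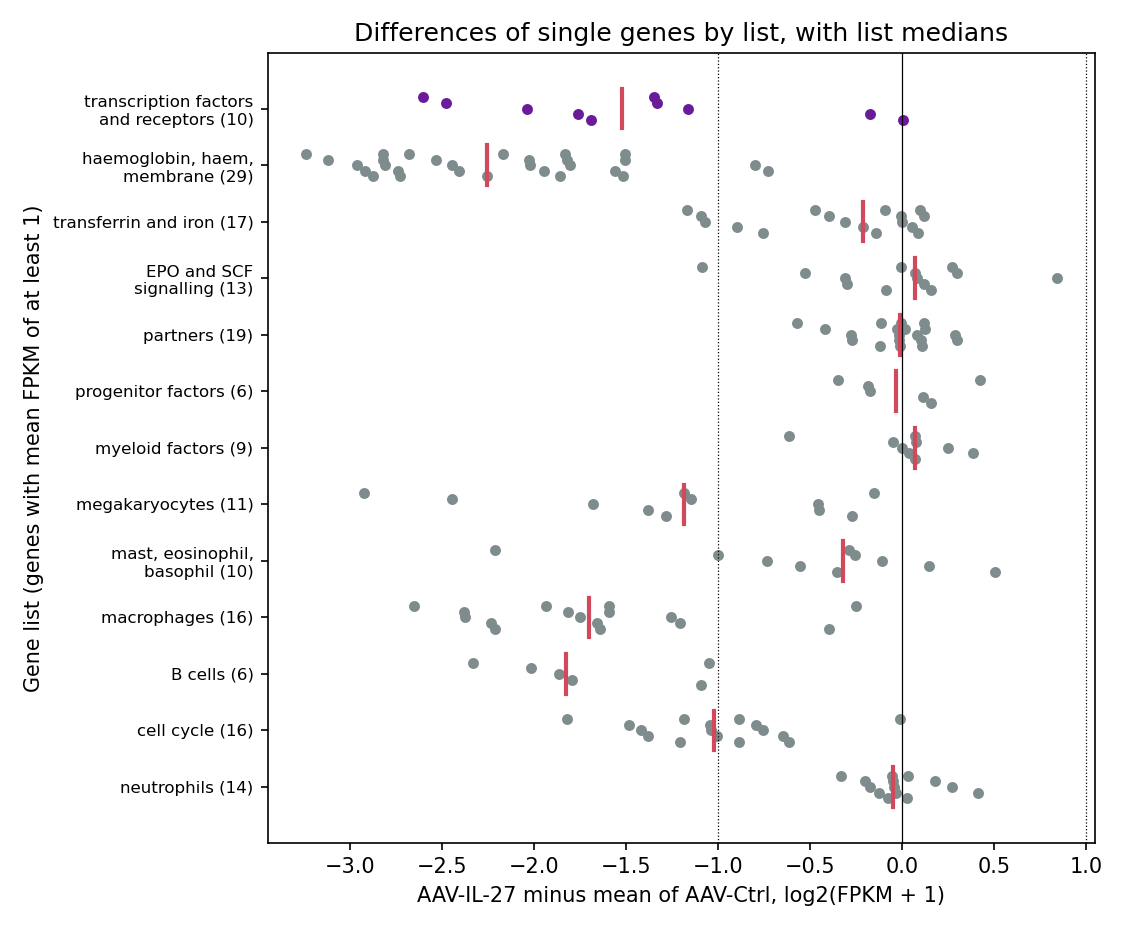
Log2(FPKM + 1) difference of AAV-IL-27 from the mean of the AAV-Ctrl libraries for each gene with a mean FPKM of at least 1, by list, with the number of genes in brackets and the list median as a vertical bar. Dotted lines mark 1 log2 unit. The factors and receptors (top) have a median of -1.52, between the downstream erythroid genes (-2.26) and the partners (-0.01).

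Markers of other cell types, only some of which use these factors, were also lower, in part. Of 14 megakaryocyte markers, 11 had a mean FPKM of at least 1 and 6 were lower, with Ppbp at 29.58, 29.14 and 2.99 FPKM and Pf4 at 11.67, 14.02 and 1.53, and the summed level of the 14 was 92.6, 103.6 and 38.2 FPKM. Of the 14, 1 marker, Gp6, was listed at 0 in AAV-IL-27. Of 14 measured markers of mast cells, eosinophils and basophils, 10 had a mean FPKM of at least 1 and 1 was lower, the chemokine receptor gene Ccr3 (14.39, 12.92 and 2.16), with a summed level of 156.2, 163.1 and 126.0. Ccr3 did not stand for this list, whose median log2 difference was -0.32, with 0 genes higher by the rule. Siglecf, in the same list, lay above both controls at 9.49, 7.44 and 12.36. Of 16 macrophage markers, 14 were lower, with a sum of 1027, 998.3 and 360.6, among them the scavenger receptor gene Cd163 (18.69, 18.02 and 2.07) and Vcam1 (87.83, 86.73 and 16.02) of the macrophages around which erythroblasts mature. Of 6 B cell markers above the filter 4 were lower, with a sum over all 10 of 33.1, 42.0 and 6.23, and of 16 cell cycle genes 7 were lower, with a sum of 138.8, 160.6 and 65.8. No marker of mast cells, eosinophils, basophils, macrophages or B cells was listed at 0 there. The part of these cells in the lower values of the 8 genes was not tested.

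Outside all lists, the genes whose pattern was most like the median of the 10 were Rgl1, Nxpe2, Pabpc4, Rnase4 and Frmd4b. Likeness was the distance between log2(FPKM + 1) values centred on each gene's mean over the 3 libraries, and it was from 0.06 to 0.07 for these genes. Rgl1 was at 5.17, 5.31 and 1.28 FPKM, and Pabpc4 at 8.68, 8.46 and 2.50. With 3 libraries such a pattern amounts to low values in AAV-IL-27 and near-equal controls, so the likeness is a description only.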

How the data were processed

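Per the labels and the study's methods, mRNA was enriched with oligo-dT, copied into strand-marked cDNA and sequenced on a DNBSEQ instrument by BGI. The authors deposited values in FPKM, to 2 decimals, keyed by NCBI Gene numbers. The submitters' processing notes name the build mm10; the aligner and counter are not given in the sources used here. Of 16073 rows, 1 has no symbol and was left out. Of the columns of per-sample values, 1 more, whose name marks it as another IL-27 replicate, could be tied to none of the listed samples, so it was left unused.

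The members and gene lists were chosen with earlier results of these data known. Differences were taken on log2(FPKM + 1). A gene was called lower or higher when at least 1 unit beyond both AAV-Ctrl libraries, if its FPKM averaged 1 or more over the libraries. The design allowed no test. The text names all members and, from each list, called genes, the most abundant gene and genes of stated roles; those of stated roles that were not called were chosen after their values were seen. The level range of the lower genes was also set afterwards.

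The depth of each library was read from the spacing of its low FPKM values over 10934 genes with a single transcript in GENCODE M21 (GRCm38, the same assembly as mm10), with 50 nt taken off every length. This used 431, 417 and 412 low values, of which 75.4%, 77.0% and 73.1% lay within 0.15 of a whole fragment, so fragment numbers are approximate and count models were not applied. The steps were checked on simulated data. Promoters are RefSeq's. The software was matplotlib 3.10.9, scipy 1.17.1, pandas 2.3.3 and numpy 2.4.6 under Python 3.11.15.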

Additional observations from a re-analysis of the deposited data

How the results depend on the processing

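The count of 8 lower genes was the same, with the same 8 genes, under pseudocounts of 0.1 and 0.01, no filter on low values, equal FPKM totals (with and without the globin genes), median ratios, a threshold of 0.5 and without either AAV-Ctrl library. It was 3 when the mean FPKM had to reach 5, which leaves 5 of the 10 genes (Hemgn, Klf1 and Tfrc lower), and 3 at a threshold of 2 (Hemgn, Klf1 and Zfpm1); both follow from the stricter setting. Over all genes the lower genes were then 93 of 6048 and 39 of 9130. They were 396 (4.34%) and 425 (4.65%) with pseudocounts of 0.1 and 0.01, 640 (7.01%) at a threshold of 0.5, and 294 (3.22%) and 243 (2.66%) without AAV-Ctrl 1 and AAV-Ctrl 2, against 2.32%. The 28 higher genes became 46 with a pseudocount of 0.01, 40 and 49 without AAV-Ctrl 1 and AAV-Ctrl 2, 143 at a threshold of 0.5 and 5 when it was 2.

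The median difference of -1.52 became -2.09 and -2.17 with pseudocounts of 0.1 and 0.01, -1.76 when the mean FPKM had to reach 5, -1.50 with equal totals and -1.49 with median ratios, and ranged from -1.55 to -1.52 without either AAV-Ctrl library. The smaller pseudocount widens differences of low genes by construction. Scaling shifted the median over all genes by 0.05 at most. Under the 9 alternatives that change a single difference, Gata1 lay between -2.86 and -1.65, Klf1 between -3.81 and -2.42, Tal1 between -1.64 and -1.13 and Lmo2 between -0.19 and -0.12, while Nfe2 ranged from -0.02 to 0.06 and so had no stable sign. None of the 8 lower genes changed sign under these alternatives. Of 117 medians of the other lists under the alternatives, 49 moved by more than the spread between the controls. Medians near 0 had no stable sign, with ranges from -0.03 to 0.13 for erythropoietin signalling, from -0.02 to 0.04 for the partners, from -0.18 to 0.11 for the progenitor factors and from -0.06 to 0.01 for the neutrophil markers. That of the iron genes ranged from -0.26 to -0.05.

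No paired analysis was possible because AAV-IL-27 has 1 library, which leaves fewer than 2 pairs. All differences rest on that library. In it, Klf1 and Gata1 rest on an estimated 15 and 19 fragments, so counting error alone leaves their values uncertain.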

Other observations

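Both controls had the empty vector, yet they differed from each other in the markers of several cell types. Of the 29 haemoglobin, haem and membrane genes above the filter, 20 were higher in AAV-Ctrl 1, with a median difference of -0.15 (AAV-Ctrl 2 minus AAV-Ctrl 1). All 6 B cell markers above the filter and all 16 cell cycle genes were higher in AAV-Ctrl 2, with medians of 0.28 and 0.22, as were 9 of 11 megakaryocyte markers. The 10 factors and receptors were split evenly, with a median of 0.01.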
